A study of Mus musculus with 12 samples.

Results

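A piece of skeletal muscle holds the blood that was in its vessels and the immune cells that live among its fibres, and the microRNAs (miRNAs) of those cells are sequenced with those of the muscle. Measured here were 8 mature miRNAs that are markers of blood cells, among 1900 mature miRNAs listed for the tissue. They were taken by name from the table. The red cell miRNAs were mmu-miR-451a, mmu-miR-144-3p and mmu-miR-144-5p, and the white cell miRNAs were mmu-miR-142-5p, mmu-miR-142-3p, mmu-miR-150-5p, mmu-miR-223-3p and mmu-miR-223-5p.

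Gastrocnemius, a large calf muscle, was taken from male C57BL/6 mice, 6 of them young (6 months) and 6 aged (24 months), and small RNA of each was sequenced as 1 library. No other treatment or allele was named for either age. The study asked which miRNAs differ between young and aged muscle. Values were given as FPKM, the reads of a miRNA scaled to its length and to the mapped reads of its library.

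A miRNA is cut from a hairpin in a longer primary transcript, and either arm of the hairpin (5p or 3p) can be kept in the Argonaute protein, where bases 2 to 8, the seed, pair with target mRNAs. miR-144 and miR-451a are made from a single primary transcript in developing red cells, where the transcription factor GATA1 drives it. miR-451a is unusual in that Argonaute itself, and not Dicer, cuts its hairpin. miR-142 is made in nearly all blood cell lineages and is a common label of leukocytes, miR-150 is abundant in mature lymphocytes, and miR-223 is made in myeloid cells such as neutrophils and monocytes. All of them are best known from blood cells.

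The mature sequences of 7 of the 8 were found in the RefSeq table (build GRCm38.p6) and are shown because their seeds and arms are what the comparisons turn on. Capitals mark the seed. In the red cell cluster on chromosome 11, the hairpin of miR-144 (chr11:78073005-78073070) and that of miR-451a (chr11:78073170-78073241) lie on the plus strand, 99 bases apart, and outside any protein-coding gene; the nearest is Eral1, on the minus strand and 134 bases beyond miR-451a.
mmu-miR-451a: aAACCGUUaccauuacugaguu
mmu-miR-144-3p: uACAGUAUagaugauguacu
mmu-miR-144-5p: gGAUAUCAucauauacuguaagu

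Of the white cell hairpins, that of miR-142 (chr11:87756864-87756927, plus strand) lies within the long non-coding gene Mir142hg and in none of its exons. That of miR-223 (chrX:96242817-96242926, plus strand) lies in an exon of the non-coding gene F630028O10Rik.
mmu-miR-142-5p: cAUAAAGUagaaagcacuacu
mmu-miR-142-3p: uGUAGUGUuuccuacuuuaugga
mmu-miR-223-3p: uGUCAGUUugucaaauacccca
mmu-miR-223-5p: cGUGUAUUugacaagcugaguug

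Each of these 7 seeds belonged to 1 mature miRNA of the RefSeq table, so no 2 of them share a seed. A further row of the table, miR-142b, is transcribed from the opposite strand of the miR-142 hairpin and lies over 20 bases of miR-142-3p. It is printed because its level cannot be separated from that of miR-142-3p.
mmu-miR-142b: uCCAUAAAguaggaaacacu
The log2 FPKM of miR-142b was above that of miR-142-3p by 0.21 to 0.22 in all 12 libraries, beside 0.20 for the log2 ratio of their lengths, so the same reads were counted in both rows. For miR-451a there was no such partner: miR-451b, from the other strand, overlaps it by 0 bases and had 1 read in all 12 libraries together.

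Depth set how firmly these miRNAs could be measured. The lowest values of each library step in whole reads, and of 3222 values below 25 reads, 99.3% were whole to within 0.15 of a read. From the size of 1 read, mapped reads ranged from 212196 to 6526695 in the young and from 120437 to 7761592 in the aged libraries. Apart from young replicate 6 and aged replicate 5, young libraries had 212196 to 609777 and aged ones 1228036 to 7761592. Depth thus largely went with age, so a difference between the ages cannot be cleanly told apart from one of depth. Young replicates 3 and 4 and aged replicate 5 were the shallowest, each under 300000 mapped reads, and the results for single members are given with and without them. Intervals on reads are exact Poisson intervals and cover counting error only. As a check of the tissue, the muscle miRNA miR-133a-3p had 5367290 ± 1029290 FPKM in young and 4709740 ± 332187 in aged libraries (SD, n = 6 each), and the liver and plasma miRNA miR-122-5p had 2 reads in all 12 libraries.

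The blood cell miRNAs were a small part of the summed FPKM. The 3 red cell miRNAs together made up 0.0175% ± 0.00396 of the summed FPKM in young and 0.0140% ± 0.00675 in aged muscle (SD, n = 6 each). The 5 white cell miRNAs made up 0.0325% ± 0.00917 in young and 0.0379% ± 0.0142 in aged muscle. The rows of miR-486 and miR-3107 had nearly the same high values, so the summed FPKM may count the same reads repeatedly. These percentages are therefore not shares of the library's reads. Aged minus young, the differences were -0.0035 percentage points for red and 0.0054 for white cell miRNAs. With the rows of miR-486 and miR-3107 left out of the total they were -0.0048 and 0.0082. In bulk tissue fewer cells of a type and less RNA per cell cannot be told apart.

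By median FPKM over the 12 libraries the order was miR-142-5p (8079), miR-451a (4444), miR-150-5p (3891), miR-144-3p (1385), miR-223-3p (1046), miR-144-5p (529), miR-142-3p (403) and miR-223-5p (9.99). At 3 of these steps the order held in only 7 or 8 of 12 libraries. miR-451a was above miR-150-5p in 8 of 12 and miR-144-5p above miR-142-3p in 7 of 12. miR-144-3p was above miR-223-3p in 8 of 12, which were 6 of 6 young and 2 of 6 aged libraries. miR-150-5p was above miR-144-3p in 12 of 12 libraries. Reads were found in every library for 7 of the 8, and in 6 libraries for miR-223-5p.

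**Figure D1:**
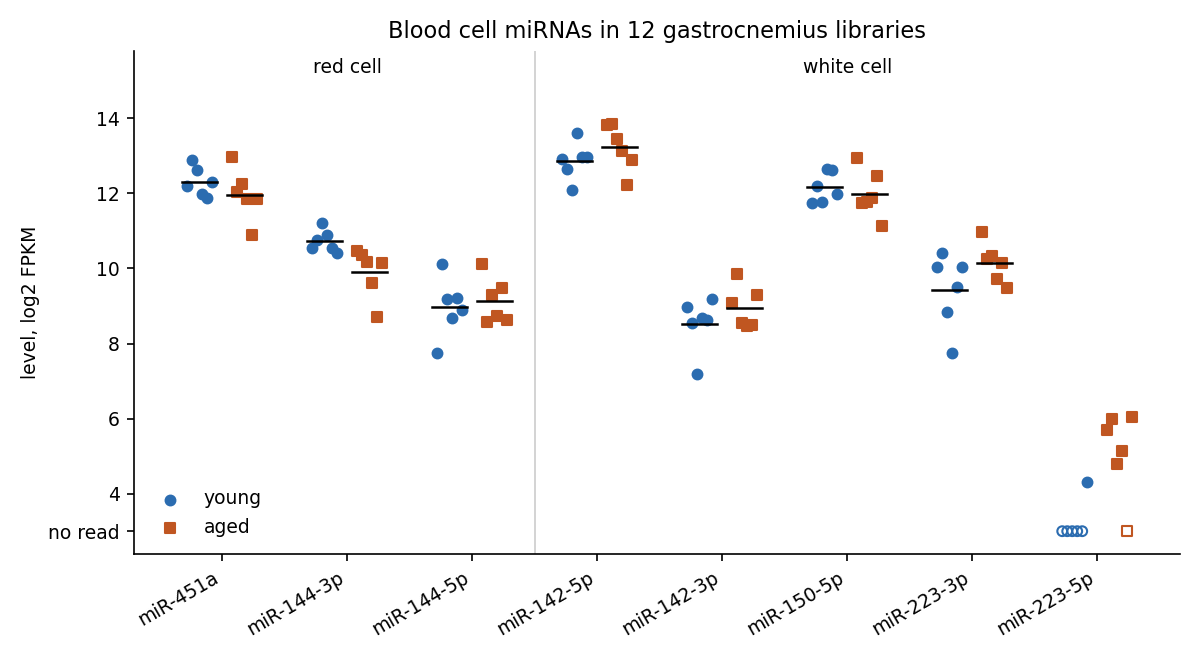
Level of the 8 blood cell miRNAs in each library as log2 FPKM, with young libraries as blue circles and aged libraries as orange squares; black lines are means of log2 FPKM over 6 libraries and open symbols are libraries with no read. The ages overlap in every miRNA, and in miR-144-3p 5 of 6 aged libraries lie below all young ones.

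The red cell miRNA miR-451a was the second most abundant of the 8 and its ages overlapped, with a wider range in aged than in young muscle. In young muscle its lowest, median and highest levels were 3743, 4891 and 7643 FPKM, and in aged muscle 1885, 3937 and 7968 FPKM. The highest value of all was aged replicate 1 and the lowest was aged replicate 5, where 5 reads were counted. Means were 5248 ± 1465 FPKM in young and 4383 ± 2020 FPKM in aged libraries (SD, n = 6 each). On log2(FPKM + 48.2) the difference, aged minus young, was -0.34 ± 0.25 (SE), and the limma adjusted p was 0.583. It was -0.12 without aged replicate 5, -0.53 without aged replicate 1 and -0.13 without the 3 shallowest libraries.

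miR-144-3p, the arm of the miR-144 hairpin with the higher median, was lower in most aged libraries than in any young one. Its levels ran from 1351 to 2353 FPKM around a median of 1606 in young muscle, and from 419 to 1418 FPKM around a median of 1148 in aged muscle. All 6 aged libraries were below the young median and 5 were below every young library, with aged replicate 1 as the exception. The mean was 1717 ± 367 FPKM in young and 1039 ± 375 FPKM in aged libraries (SD, n = 6 each). The log2 change was -0.77 ± 0.28 (SE; 95% interval -1.35 to -0.19), with an unadjusted limma p of 0.0118 and an adjusted p of 0.189, so it did not pass the threshold of 0.05. The lowest aged value rested on 1 read. Without the 3 shallowest libraries the log2 change was -0.39 with an adjusted p of 0.508.

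The pooled reads gave a smaller difference. Over all libraries of an age miR-144-3p had 245 reads in young muscle, or 28.7 RPM (reads pooled over an age and scaled to its mapped reads; 95% interval 25.2 to 32.5), and 313 in aged muscle, or 23.2 RPM (20.7 to 26.0), a ratio of 0.811 (0.684 to 0.962). These sums lean on the deepest library of each age, young replicate 6 with 176 reads and aged replicate 3 with 180. In 0 of 12 libraries did the counting interval of miR-144-3p leave out the pooled rate of its age, but most intervals were wide, and a spread between mice within them cannot be told from counting error.

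The other arm, miR-144-5p, had values from 214 to 1121 FPKM in young and from 380 to 1121 FPKM in aged muscle, with medians of 529 and 522. The ages overlapped almost wholly. The log2 change, 0.14 ± 0.40 (SE), had an adjusted p of 0.933 in limma, and the 95% interval from -0.69 to 0.97 holds changes of either direction. Without the 3 shallowest libraries the change was 0.05. Single libraries held as few as 2 reads.

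Among the white cell miRNAs miR-142-5p was the most abundant, with 4330 to 12417 FPKM in young libraries (median 7915) and 4771 to 14766 FPKM in aged libraries (median 10086). Of the aged libraries 2 were above every young one, and 2 were below the young median. Means were 7854 ± 2656 and 10302 ± 3980 FPKM (SD, n = 6 each), which on the log2 scale was 0.35 ± 0.24 (SE) higher in aged muscle, with an adjusted p of 0.539 in limma. Without the 3 shallowest libraries it was 0.54 with an adjusted p of 0.182. Its pooled reads were 1425 in young and 3223 in aged muscle, 167 and 239 RPM, a ratio of 1.44 whose counting interval was 1.35 to 1.53. Here counting error was not the whole spread: in 7 of 12 libraries the counting interval left out the pooled rate of the age.

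The less abundant arm, miR-142-3p, ran from 145.01 to 584 FPKM in young muscle (median 403) and from 352 to 917 FPKM in aged muscle (median 460). The lowest was young replicate 3, with 1 read. Its log2 change was 0.37 ± 0.41 (SE; adjusted p 0.748 in limma), and without the 3 shallowest libraries it was 0.20. The pooled rate lay the other way, at 12.4 RPM in young and 10.9 in aged muscle, with a ratio of 0.880 and a counting interval of 0.681 to 1.14.

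miR-150-5p, the lymphocyte miRNA, was level between the ages within the spread, with 3444, 4372 and 6427 FPKM as the lowest, median and highest young values and 2257, 3630 and 7804 FPKM as the aged ones. Aged replicate 1 again held the highest value. The log2 change was -0.17 ± 0.24 (SE; 95% interval -0.67 to 0.32), and limma gave an adjusted p of 0.823. It was -0.24 without the 3 shallowest libraries. Pooled rates were 92.2 and 87.0 RPM, a ratio of 0.944 (0.862 to 1.035).

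miR-223-3p, the main arm of the myeloid miRNA, varied widely among young libraries, with a log2 SD of 0.90, and less among aged ones, with 0.49. Young libraries ran from 214 FPKM (young replicate 4, 1 read) to 1370 FPKM, with a median of 887, and aged libraries from 719 to 1992 FPKM, with a median of 1181. Young replicates 3 and 4 were below all aged libraries, and they are 2 of the 3 shallowest. The log2 change was 0.67 ± 0.37 (SE; 95% interval -0.10 to 1.44), with an unadjusted limma p of 0.0855 and an adjusted p of 0.458. Without the 3 shallowest libraries it was 0.15 with an adjusted p of 0.839.

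miR-223-5p, the other arm, was at the limit of detection. It had 3 reads in young muscle, all in replicate 6, and 12 reads in aged muscle, in 5 of 6 libraries with 1 to 5 reads each. In the 5 young libraries without a read the level of 3 reads ranged from 214 to 615 FPKM, above the highest value of any aged library (65.3 FPKM). A level like that of the aged libraries would give under 3 reads there, so the lack of reads does not show that it was absent. The values of aged replicates 1, 2, 4 and 6 were also below the level of 3 reads in their own libraries. No fold change is given for it. Pooled rates were 0.351 RPM in young (95% interval 0.0724 to 1.0254) and 0.891 in aged muscle (0.460 to 1.56), a ratio of 2.54 with a counting interval of 0.685 to 14.02.

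Across the table, 14 of 482 tested miRNAs passed an adjusted p of 0.05 in limma (2.9%), 3 of them higher and 11 lower in aged muscle. Of the 7 blood cell miRNAs with reads in every library 0 passed. miR-223-5p entered the test through its aged libraries, with reads in 1 young one, so its p is not counted here. Of the 7 with reads in every library 1, miR-144-3p, had an unadjusted p under 0.05, beside 62 of all 482. The count of these 7 passing the adjusted threshold stayed at 0 with voom on the recovered reads. Under the thresholds the study used, an unadjusted p under 0.05 and a fold of at least 1.5, miR-144-3p also passed, beside 47 of 482 (9.75%). The study applied those thresholds to the same libraries, so this is no independent evidence. None of the 7 had ages that did not overlap, beside 2.7% of all tested miRNAs. Of the 7 estimates 4 were above 0 and 3 below, with a median of 0.14 beside 0.07 over all 482.

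**Figure D2:**
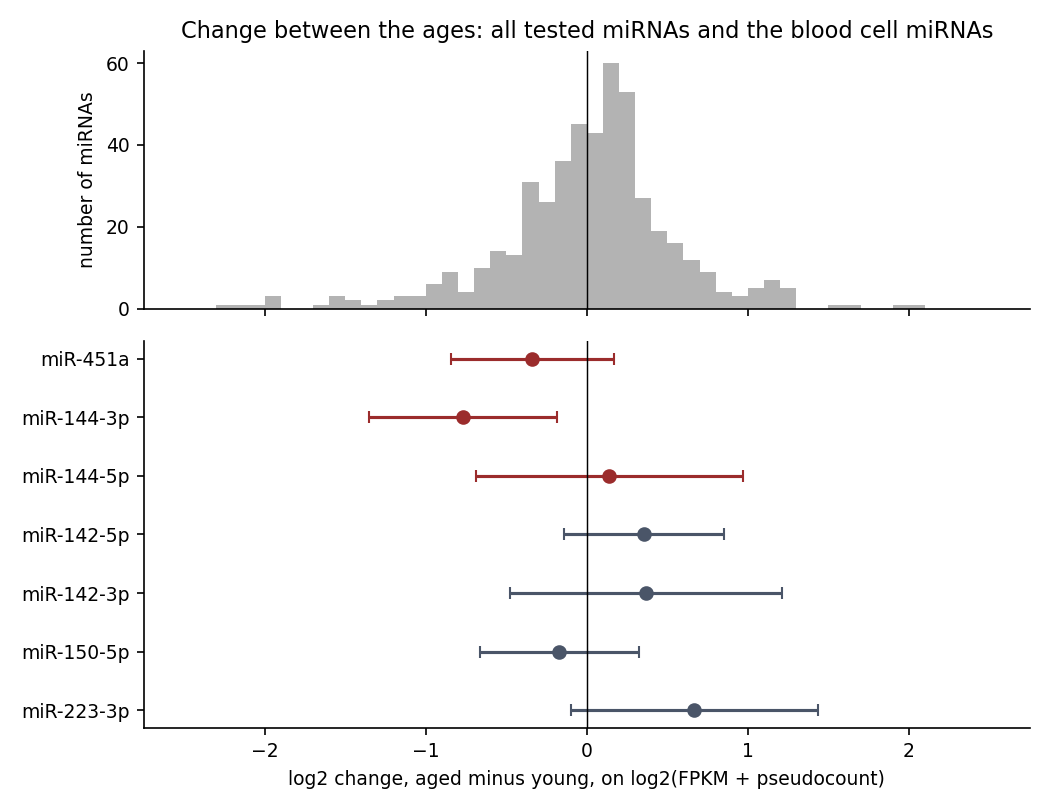
Top, the log2 changes (aged minus young, on log2(FPKM + 48.2)) of all 482 tested miRNAs as a histogram; bottom, the changes of the 7 blood cell miRNAs with reads in every library, with 95% intervals from limma, red for red cell and grey for white cell miRNAs. Only the interval of miR-144-3p, from -1.35 to -0.19, leaves out 0 before adjustment.

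The members varied more between libraries of an age than most miRNAs. The within-age SD of log2(FPKM + 48.2) was 0.48 for miR-144-3p, 0.52 for miR-150-5p, 0.54 for miR-451a, 0.55 for miR-142-3p, 0.56 for miR-142-5p, 0.64 for miR-144-5p and 0.73 for miR-223-3p, beside a median of 0.33 over the 216 miRNAs with reads in every library. Between 71.3% (miR-144-3p) and 94.4% (miR-223-3p) of those 216 had a smaller SD. This SD includes counting error, which is larger at low reads, and the 216 were not matched to the members in level. The larger spread can therefore not be told apart from their lower reads. The counting interval left out the pooled rate of the age in 5 of 12 libraries for miR-451a, 5 for miR-150-5p, 2 for miR-144-5p, 2 for miR-223-3p and 1 for miR-142-3p. Counting intervals narrow as reads rise, so these numbers depend on the reads of each member and do not rank their spread.

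The arms of the 2 hairpins with enough reads were unequal in opposite ways. For miR-142 the 5p arm exceeded the 3p arm in every library, by 12.1 to 30.3 times with a median of 18.9. For miR-144 the 3p arm exceeded the 5p arm by a median of 2.66 times, from 0.582 times in aged replicate 5, where the arms had 1 and 2 reads, to 6.96 times in young replicate 1. No ratio is given for miR-223, whose 5p arm had 3 reads or fewer in every young library.

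The balance of the miR-142 arms did not move detectably with age. Its log2 ratio of 5p to 3p was 4.16 ± 0.41 in young and 4.14 ± 0.55 in aged muscle (SD, n = 6 each). The change was -0.01 ± 0.28 (SE; adjusted p 0.983 in limma). Because the reads of miR-142-3p are also those listed for miR-142b, the 3p side of this ratio may hold reads of either strand.

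The log2 ratio of miR-144-5p to miR-144-3p was -1.64 ± 0.69 in young and -0.73 ± 0.86 in aged muscle (SD, n = 6 each). The change was 0.91 ± 0.44 (SE), with an unadjusted limma p of 0.0592 and an adjusted p of 0.425 over 130 hairpins, and 0.44 without the 3 shallowest libraries. Of the 130 hairpins 1 passed the adjusted threshold (0.769%), and neither blood cell hairpin was it.

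Ratios between members of a library depend little on how the library was scaled, but for the pseudocount of 48.2 in both terms, and 3 were compared. The log2 ratio of miR-144-3p to miR-451a, made from a single primary transcript, was -1.566 ± 0.385 in young and -1.998 ± 0.314 in aged muscle (SD, n = 6 each), a difference of -0.43 with an exact two-sided permutation p of 0.0606, adjusted to 0.182 over the 3 ratios. In FPKM, miR-451a exceeded miR-144-3p by 2.14 to 4.44 times in young and by 3.16 to 5.62 times in aged libraries. Without the 3 shallowest libraries the log2 difference was -0.26, and with 10 times the pseudocount it was also -0.26.

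The log2 ratio of miR-142-3p to miR-451a, white to red cell, was 0.71 higher in aged muscle (exact permutation p 0.145, adjusted 0.218), and 0.33 without the 3 shallowest libraries. That of miR-223-3p to miR-142-3p, myeloid to all white cells, was 0.30 higher (exact permutation p 0.541), and -0.05 without them. None of the 3 passed the threshold. The ratios with miR-142-3p rest on few reads, since it had 7 or fewer in every young library but replicate 6. Its reads are also those listed for miR-142b.

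Whether members rise and fall together from muscle to muscle was examined over the 21 pairs of the 7 with reads in every library. No pair passed after adjustment over the 21, and 2 had an unadjusted p under 0.05. Those were the pair made from a single primary transcript and the pair of arms of miR-142.

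miR-144-3p and miR-451a had a Pearson r of 0.763 over 12 libraries (permutation p 0.00666, adjusted 0.140) and a Spearman rho of 0.599 (permutation p 0.0437, adjusted 0.459). Within the ages r was 0.365 in young (exact permutation p 0.489) and 0.884 in aged muscle (exact permutation p 0.00694), and the difference between the ages was not tested. Without aged replicates 4 and 5, the libraries farthest from the median of miR-144-3p, r was 0.350. Leaving out the extremes of a variable narrows its range and tends to lower r in itself. The r was 0.762 without aged replicate 4 alone and 0.473 without aged replicate 5 alone, which had 1 read of miR-144-3p. Of these 2 libraries, r thus leaned on aged replicate 5. Without the 3 shallowest libraries r was 0.574 with an exact permutation p of 0.334 after adjustment.

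miR-142-3p and miR-142-5p had r = 0.663 (permutation p 0.0173, adjusted 0.181) and rho = 0.518 (permutation p 0.0875, adjusted 0.459). It was 0.725 in young and 0.547 in aged muscle, with exact permutation p-values of 0.117 and 0.263. Without aged replicate 2 and young replicate 3, the libraries farthest from the median of miR-142-3p, it was 0.208, with the same limit. It was 0.558 without aged replicate 2 alone and 0.471 without young replicate 3 alone.

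The arms of miR-144 did not move together. miR-144-3p and miR-144-5p had r = -0.03 (permutation p 0.922, adjusted 0.980) and rho = 0.028 (permutation p 0.932), with 0.244 in young and -0.029 in aged muscle (exact permutation p 0.653 and 0.944). Without aged replicates 4 and 5 r was 0.141. In 9 of 12 libraries the 5p arm had 12 reads or fewer.

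**Figure D3:**
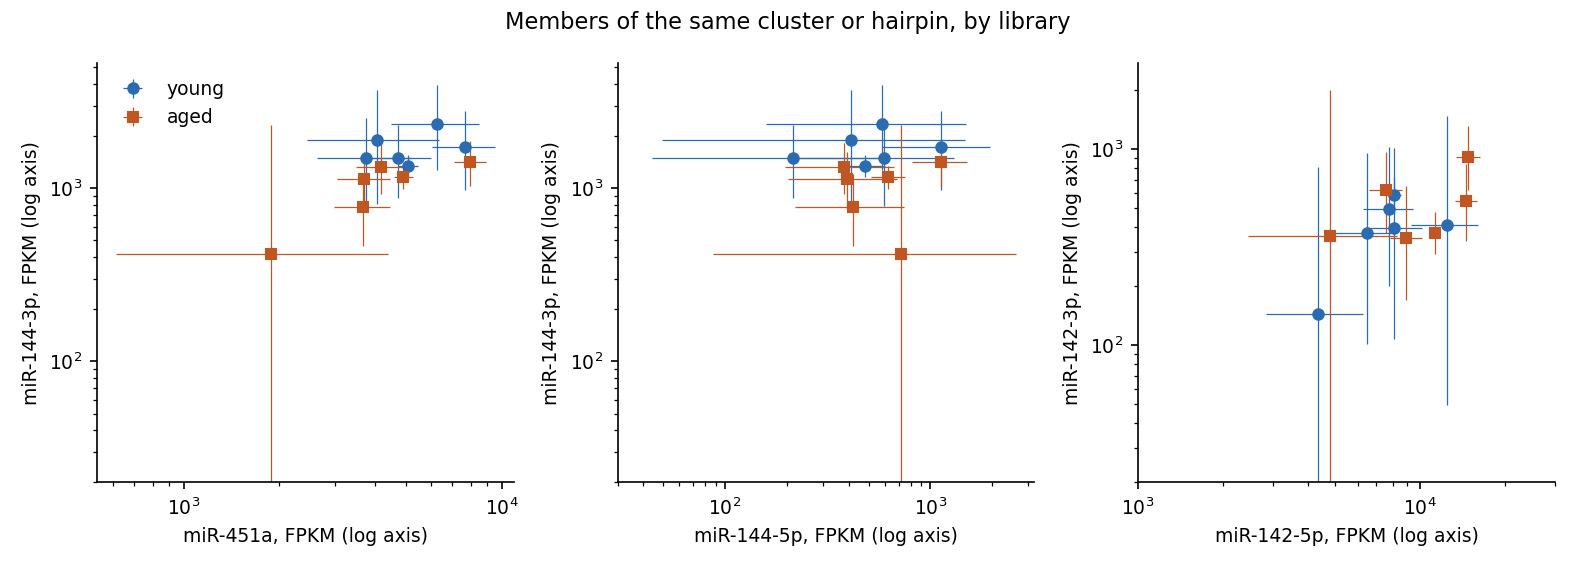
FPKM of miR-144-3p against miR-451a (left), of miR-144-3p against miR-144-5p (middle) and of miR-142-3p against miR-142-5p (right), 1 point per library on log axes, with exact 95% Poisson intervals of the reads as error bars. The lowest point on the left and in the middle is aged replicate 5, at 419 FPKM from 1 read of miR-144-3p, and the lowest on the right is young replicate 3, at 145.01 FPKM from 1 read of miR-142-3p.

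No pair of a red with a white cell miRNA passed over the 12 libraries. The 12 pairs of a red with a white cell miRNA had r from -0.350 to 0.552 with a median of 0.037, the 6 pairs of white cell miRNAs a median of 0.186, and the 3 red cell pairs a median of 0.358. The highest of the 12 was miR-144-5p with miR-150-5p, at r = 0.552 (permutation p 0.0633, adjusted 0.443) and rho = 0.643 (permutation p 0.0274, adjusted 0.459). For this pair r was 0.281 in young (exact permutation p 0.613), 0.885 in aged muscle (exact permutation p 0.0125) and 0.626 without young replicates 1 and 2. Within the ages some pairs went in opposite directions. For miR-451a and miR-142-5p r was -0.677 in young (exact permutation p 0.144) and 0.877 in aged muscle (exact permutation p 0.0222), and 0.240 over both (permutation p 0.456), with a rho of 0.081 (permutation p 0.807). Without aged replicates 1 and 5 it was -0.536. For miR-144-3p and miR-142-3p r was -0.907 in young (exact permutation p 0.0111) and 0.634 in aged muscle (exact permutation p 0.158), and -0.164 over both (permutation p 0.565), with a rho of -0.112 (permutation p 0.727). Without aged replicates 4 and 5 it was -0.742. These last pairs were chosen after their values were seen, these p-values are not adjusted, and the differences between the ages were not tested.

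Some pairs had a higher r without the shallowest libraries, and 1 of them passed. miR-451a and miR-223-3p had r = 0.222 over 12 libraries (permutation p 0.468, rho 0.448, permutation p 0.145). Over the 9 libraries above 300000 mapped reads r was 0.873, with an exact permutation p of 0.0169 after adjustment over the 21 pairs. For miR-144-5p and miR-451a r was 0.735 over these 9 (exact permutation p 0.257 after adjustment), beside 0.358 over 12. For miR-144-3p and miR-144-5p it was 0.322 (exact permutation p 0.646 after adjustment), beside -0.03. These 9 libraries were picked after the data were seen. Correlations of the 7 members with log10 of the depth lay between -0.353 and 0.479, with a lowest adjusted permutation p of 0.366. Spearman's rho lay between -0.322 and 0.524, with a lowest adjusted permutation p of 0.243, and without the 2 libraries of most extreme depth r reached 0.592 (miR-142-5p).

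**Figure D4:**
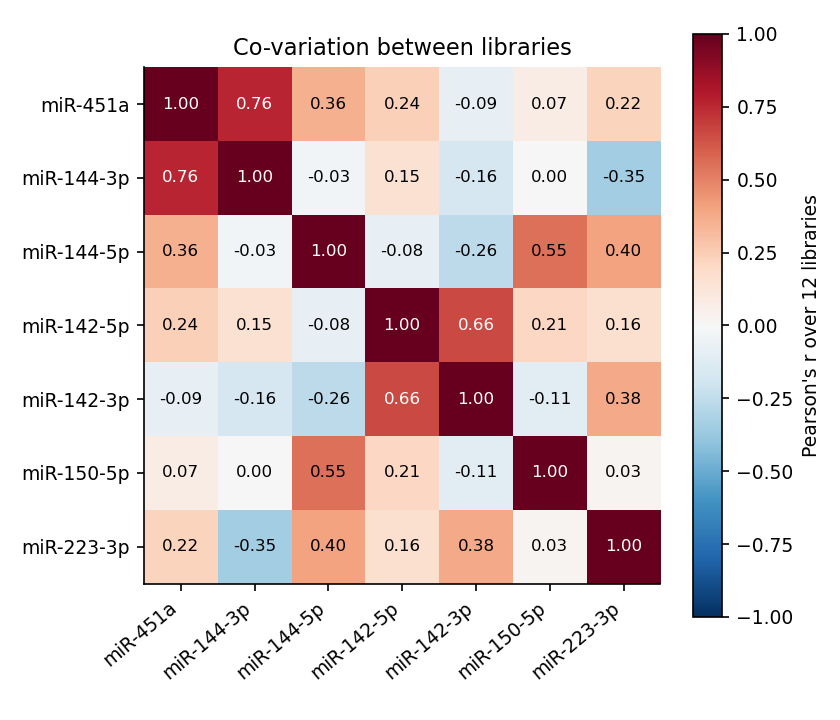
Pearson's r of log2(FPKM + 48.2) between the 7 blood cell miRNAs with reads in every library, over 12 libraries, from blue (negative) to red (positive). The 2 cells farthest from 0 are miR-451a with miR-144-3p (0.763) and miR-142-5p with miR-142-3p (0.663), and no pair passed adjustment.

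The libraries differed in how white and red cell miRNAs were balanced. The summed white cell FPKM was 0.920 to 3.05 times the red cell sum in young libraries, with a median of 1.99, and 2.15 to 3.95 times in aged libraries, with a median of 2.66. Young replicate 3 had the lowest balance and aged replicate 5 the highest, and both are among the shallowest. Aged replicate 1 had the highest sums of both kinds, with 10507 FPKM of red and 24956 FPKM of white cell miRNAs. No test was made of these sums.

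**Figure D5:**
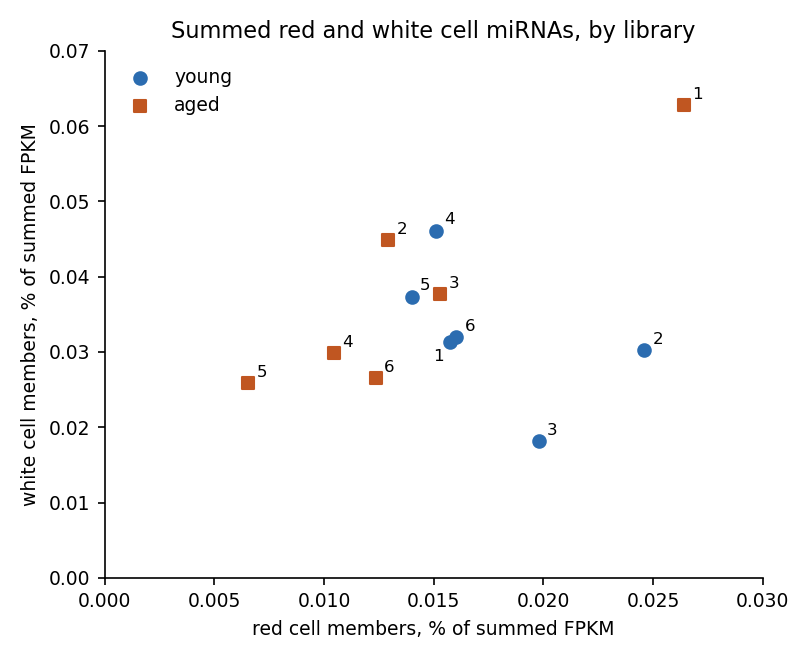
Summed share of the 3 red cell miRNAs (horizontal) and of the 5 white cell miRNAs (vertical) in percent of the summed FPKM of each library, labelled by replicate number, young as blue circles and aged as orange squares. Aged replicate 1 lies highest on both axes (0.0264% and 0.0628%), aged replicate 5 lowest for red cell miRNAs (0.00656%), and young replicate 3 lowest for white cell miRNAs (0.0182%).

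Other miRNAs that are abundant in blood cells, but that muscle or other tissues also make, were read from the same table. Of 7 further red cell miRNAs tested 0 passed the threshold, with a median log2 change of 0.11. miR-486-5p, which red cells and muscle both hold, had 2539460 ± 556737 FPKM in young and 2742420 ± 546481 FPKM in aged muscle (SD, n = 6 each) and an r of -0.12 with miR-451a over the 12 libraries. The 7 include both arms of miR-486, whose log2 ratio of 5p to 3p was nearly fixed. It was -0.038 ± 0.015 in young and -0.048 ± 0.0041 in aged libraries (SD), so their levels cannot be separated. Of 10 further white cell miRNAs tested 1 passed, beside 14 of all 482 (2.9%). It was miR-146a-5p, an inhibitor of innate immune signalling, with 3560 ± 2751 FPKM in young and 7700 ± 3615 FPKM in aged muscle. On the log2 scale it was 1.27 ± 0.35 (SE) higher, with an adjusted p of 0.0497 in limma, just under the threshold. Its r with miR-142-5p was 0.201.

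The miRNAs of the vessel lining lay above the blood cell miRNAs in level. The 2 endothelial miRNAs, miR-126a-3p and miR-126a-5p, had a sum of 307743 to 455685 FPKM in young and of 336491 to 382329 FPKM in aged libraries, and 0 of 2 passed. Of 2 smooth muscle miRNAs 0 passed as well. Of 6 skeletal muscle miRNAs 1 passed, beside 2.9% of all tested miRNAs. It was miR-206-3p, which is tied to regeneration and motor nerve contact, at 1.54 ± 0.39 (SE; limma adjusted p 0.0296). Their part in the values of the blood cell miRNAs was not tested.

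For each of the 7 members, the 3 miRNAs most like it were found among 203 others with reads in every library, rows that carry the same reads counted once, by Pearson's r over the 12 libraries. These are the highest of many values and are a description. miR-451a was most like miR-29c-5p (0.908), miR-381-3p (0.799) and miR-144-3p (0.763), and miR-29c-5p also led for miR-144-3p (0.830), followed by miR-136-3p (0.799, the same reads as miR-3071-5p) and miR-143-5p (0.785). miR-136-3p and miR-143-5p passed as lower in aged muscle (limma adjusted p 4.11e-05 and 0.0497), so r over both ages includes that shift. On deviations from the age mean their r with miR-144-3p was 0.628 and 0.570, and that of miR-29c-5p was 0.828. Some of the likenesses rested on few reads, since miR-29c-5p had under 10 in 3 libraries and miR-381-3p in 5.

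miR-142-5p was most like miR-24-2-5p (0.914, the same reads as miR-3074-2-3p), let-7g-5p (0.812) and miR-1839-5p (0.805), and miR-150-5p most like miR-350-5p (0.822), miR-21a-3p (0.799) and miR-484 (0.765). For miR-144-5p these were miR-328-3p (0.796), miR-532-5p (0.689) and miR-350-5p (0.622). Likeness was lower for miR-142-3p, led by miR-27a-3p (0.691), miR-34a-5p (0.681) and its own 5p arm (0.663), and for miR-223-3p, led by miR-192-5p (0.665), miR-92a-3p (0.624) and miR-139-5p (0.595). Another of the 8 blood cell miRNAs was thus among the 3 most like only for miR-451a and miR-142-3p. Few reads limit these values too, since miR-350-5p had under 10 in 8 libraries and miR-34a-5p in 5. For miR-34a-5p with miR-142-3p rho was 0.301, beside the r of 0.681.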

How the data were processed

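Small RNA of gastrocnemius muscle was sequenced in 12 libraries, 1 per mouse. Per the study's methods, the authors removed adaptors, aligned the reads with BWA to mm10 and gave each mature miRBase miRNA an FPKM. The deposited values are log2 FPKM, in which 0 stands for no read. Use of strand and the handling of reads with several matches are not given in the sources used here. The log was undone, and genomic copies of a mature miRNA were summed. The FPKM of 1 read, with mature lengths from RefSeq (22 nt where none), gave reads and implied mapped reads. A count test was not the main test because the values are FPKM.

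The 482 miRNAs above 0 in at least 5 of 12 libraries entered limma 3.58.1 in R 4.3.3 (eBayes with trend, two-sided, Benjamini-Hochberg at 0.05) on log2(FPKM + 48.2). The pseudocount is each library's lowest non-zero FPKM, taken as a median of the 12. Log2 folds understate changes of low miRNAs. Ratios were compared by exact permutation, and correlations by 100000 permutations, or exactly for under 10 libraries, in SciPy 1.17.1. The fit was also run on simulated data whose settings were not matched to these members, so that run says nothing about detecting their changes. Same-numbered young and aged libraries did not deviate together (r from -0.094 to 0.095), so numbers were not used as pairs. Named miRNAs were the 8 members, the 3 most like each, and members of the lists of blood cell, vessel, muscle and liver miRNAs. The members and lists were chosen with earlier results of these data known. p-values measure the spread between these libraries, 1 per mouse, in which counting error is included.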

Additional observations from a re-analysis of the deposited data

Results flagged for a closer look

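In 30 groups of 6 libraries that were examined, 2 held a library that stood apart from the other 5 by Dixon's test, and chance alone gives about 1.5. The log2(FPKM + 48.2) of miR-142-3p in young replicate 3 was 7.59, with the other young libraries between 8.72 and 9.30, and it rested on 1 read. The same quantity for miR-223-5p in young replicate 6 was 6.09, with the other 5 at 5.59 because they had no read.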

How the results depend on the processing

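None of the 7 blood cell miRNAs with reads in every library passed in any alternative. There were 26 for each but miR-142-3p, which had 25, as it did not enter the fit with a filter on the mean. For miR-144-3p adjusted p ran from 0.110 (exact permutation) to 0.508 (limma without the 3 shallowest libraries). In the exact permutation tests 0 of all miRNAs passed, so that alternative says nothing particular to the members. With the replicate block the log2 change of miR-144-3p was -0.77 (limma adjusted p 0.203), and the count of all miRNAs passing was again 14. With depth as a covariate the log2 changes were -0.86 for miR-144-3p, 0.17 for miR-144-5p and -0.49 for miR-451a. For the white cell miRNAs they were 0.26 for miR-142-3p, 0.22 for miR-142-5p, -0.08 for miR-150-5p and 0.52 for miR-223-3p. The count of all miRNAs passing, 14, was 6 with a pseudocount of 1 FPKM, 7 with no filter, 8 with a filter on the mean, 8 with depth as a covariate, 6 with zeros kept as values, 0 with exact permutation tests, whose smallest p is too large for adjustment over 482, and 8 without the 3 shallowest libraries, which were left out after seeing the data. With 1 library left out in turn it ranged from 6 to 15. The change of miR-144-5p ranged from -0.078 to 0.35 with 1 library left out, and was -0.078 without young replicate 1 and -0.046 without aged replicate 1. With 1 library left out the changes ranged from -0.88 to -0.55 for miR-144-3p, from -0.53 to -0.12 for miR-451a, from 0.14 (without young replicate 3) to 0.48 for miR-142-3p, from 0.20 (without young replicate 3) to 0.55 for miR-142-5p, from -0.36 to -0.0047 (without aged replicate 6) for miR-150-5p and from 0.37 (without young replicate 4) to 0.85 for miR-223-3p. The change in arm ratio of miR-142 was 0.15 with 10 times the pseudocount and 0.34 without the 3 shallowest libraries, and ranged from -0.13 to 0.11 with 1 library left out. The log2 ratio of miR-223-3p to miR-142-3p was -0.0497 without the 3 shallowest libraries and ranged from -0.027 (without young replicate 4) to 0.49. The count of correlated pairs went from 0 to 1 without the 3 shallowest libraries. The r of miR-144-3p with miR-144-5p was 0.063 on deviations from the age mean, 0.0074 with 10 times the pseudocount, 0.322 without the 3 shallowest and 0.141 without the 2 farthest libraries, and ranged from -0.167 to 0.202 with 1 left out. The r of miR-144-3p with miR-451a ranged from 0.350 to 0.826. The causes were not tested. Depth limits the precision: single libraries held as few as 1 read of miR-144-3p, miR-142-3p and miR-223-3p.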
